A study of Mus musculus with 9 samples.

Results

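Sting1, Nod1, Nod2 and Nlrp3 are 4 genes for proteins that sense microbial or misplaced molecules inside the cell, and all 4 were found among the 19752 genes measured here. They were chosen by their function as cytosolic sensors and by the differences between IFNg and IFNa in these same arrays, of which some favoured IFNg, so their values are given as a description, with no test between groups. Each is represented by its single probe set carrying only that symbol. Expression was measured in peritoneal cavity macrophages of C57BL/6 male mice aged 6 weeks, with no mutation named in the labels. The first group received 8000 U of recombinant IFNg (interferon gamma, the single type II interferon, 2 arrays), the second 10000 U of recombinant IFNa (interferon alpha, of the type I family, 4 arrays), each injected under the skin 2 h before the cells were taken, and the last was left untreated (3 arrays). No group injected with vehicle was analysed here, so interferon and injection cannot be told apart in a comparison with untreated mice. The cells were sorted on F4/80 and ICAM2 in the treated groups and, per their label, on F4/80 alone in untreated mice. If the labels are complete, interferon and the sort cannot be told apart in those comparisons either. The sources used here do not say whether an array holds cells of 1 mouse or of several, so the errors measure the spread between arrays.

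STING, the product of Sting1, sits in the membrane of the endoplasmic reticulum and binds cyclic dinucleotides, either bacterial ones or the cGAMP that the enzyme cGAS makes on meeting DNA in the cytosol. It then recruits the kinase TBK1, which activates the transcription factor IRF3 and with it the type I interferon genes. NOD1 and NOD2 recognise fragments of bacterial peptidoglycan and signal through the kinase RIPK2 to NF-kB, whereas NLRP3 responds to potassium loss and other disturbances by assembling an inflammasome with the adaptor ASC and caspase-1, which matures the cytokines IL-1 beta and IL-18. In macrophages, NLRP3 is known to be scarce at rest and to need a priming signal.

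RefSeq promoter windows (GRCm38.p6), 250 bases before to 50 after an annotated start, were found for 3 of the 4 genes. They were searched on both strands for the gamma-activated site TTCNNNGAA and for the interferon-stimulated response element, spelled as GAAA, any 2 bases and GAAA again. Of 32851 windows of all genes, 8.30% held the first motif and 3.44% the second. Both windows of Nod1 are shown with that of Nod2, because these related genes differed in response, and capitals mark a match to the first motif. Each sequence runs 5′ to 3′ on its gene's strand.
Nod1, chr6:54971612-54971911, minus strand: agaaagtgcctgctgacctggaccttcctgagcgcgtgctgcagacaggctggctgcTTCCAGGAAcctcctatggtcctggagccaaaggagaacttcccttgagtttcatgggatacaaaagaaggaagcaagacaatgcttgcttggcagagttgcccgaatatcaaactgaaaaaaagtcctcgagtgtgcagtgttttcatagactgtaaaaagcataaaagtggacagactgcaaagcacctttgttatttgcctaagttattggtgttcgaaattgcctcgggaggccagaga
Nod1, chr6:54972563-54972862, minus strand: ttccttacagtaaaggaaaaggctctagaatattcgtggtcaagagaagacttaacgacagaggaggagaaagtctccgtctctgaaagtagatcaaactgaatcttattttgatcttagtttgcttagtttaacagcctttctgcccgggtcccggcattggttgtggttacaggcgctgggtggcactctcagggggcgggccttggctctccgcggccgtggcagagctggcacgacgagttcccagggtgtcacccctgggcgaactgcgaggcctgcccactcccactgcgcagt
Nod2, chr8:88647097-88647396, plus strand: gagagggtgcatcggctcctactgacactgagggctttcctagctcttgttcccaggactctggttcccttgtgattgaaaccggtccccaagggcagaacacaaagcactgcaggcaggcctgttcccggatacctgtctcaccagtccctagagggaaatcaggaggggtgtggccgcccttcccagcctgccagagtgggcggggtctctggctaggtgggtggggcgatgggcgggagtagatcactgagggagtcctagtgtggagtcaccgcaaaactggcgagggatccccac
The first Nod1 window held 1 match, TTCCAGGAA, starting 193 bases before that start. The other Nod1 window, the Nod2 window and both Nlrp3 windows held neither motif. A match describes letters only, and the absence of one concerns these windows alone.

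Among the arrays, IFNa replicate 4 and untreated replicate 1 had a narrower range of intensity than the rest. Their upper quartile exceeded the lower by log2 2.16 and 2.27 against 2.68 to 3.03 in the other arrays, so results that rest on them are also given without both. Adgre1, which encodes F4/80, was high in all groups, at a mean intensity of 8348 after IFNg, 8513 after IFNa and 8272 untreated. The summed level of 11 markers of large peritoneal macrophages was 81906 to 85643 after IFNg, 82834 to 84608 after IFNa and 85869.9 to 88768 untreated, and Gata6 was the 1 marker of these called lower after either interferon. The summed level of 9 neutrophil and eosinophil markers was 2449.6 to 2737 after IFNg, 2346 to 2651 after IFNa and 3153 to 3332 untreated, and most of that sum was Csf3r. That of 7 mast cell markers was 361 to 362, 369 to 444 and 422 to 564 in the same order of groups. Sums of 8 markers of small macrophages, monocytes and dendritic cells (2367 to 2590.2, 2200.1 to 2562 and 2457 to 2783) and of 8 T and NK cell markers (540.2 to 542, 498 to 734 and 524 to 728) overlapped between treated and untreated arrays. The sum of 7 B cell markers was 710 to 773 after IFNg, 677 to 2210.4 after IFNa, with IFNa replicate 2 highest, and 846 to 1166 untreated. Of the markers of these other cells Plac8 was the 1 called, higher after IFNa. Its mean intensity was 235 after IFNg, where it was not called, 230 after IFNa and 115 untreated. The part of other cells in the results below was not tested, and in such bulk samples a change in the share of cells cannot be told apart from a change in RNA per cell.

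The question asked of each sensor was how its transcript stood 2 h after either interferon. Sting1 had intensities of 4050.4 and 3289.7 in the IFNg arrays. In the IFNa arrays it had 692, 913, 1026 and 1461, and in the untreated arrays 535, 973 and 1057. Both IFNg arrays lay far above the rest, whereas the IFNa and untreated arrays overlapped. On the log2 scale the level was 11.83 ± 0.21 after IFNg, 9.95 ± 0.45 after IFNa and 9.68 ± 0.54 untreated (SD, n = 2, 4 and 3). Sting1 was thus higher after IFNg by log2 2.16 ± 0.34 (SE) than untreated, a 4.45-fold difference, and by 1.89 ± 0.33 (3.70-fold) than after IFNa. Ranked by size, this was the 59th highest of the 19752 log2 differences between IFNg and untreated, and the 13th highest between IFNg and IFNa.

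The IFNa level of Sting1 could not be set apart from the untreated one, and its direction hung on the arrays of narrow range. The log2 difference between IFNa and untreated was 0.27 ± 0.29. The highest IFNa array and the lowest untreated array were the 2 of narrow range. Without them the geometric mean intensity was 865 after IFNa and 1014 untreated, and the difference turned to -0.23 ± 0.17. The differences of IFNg from untreated (1.85 ± 0.19) and from IFNa (2.08 ± 0.17) stayed large without those arrays.

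**Figure D1:**
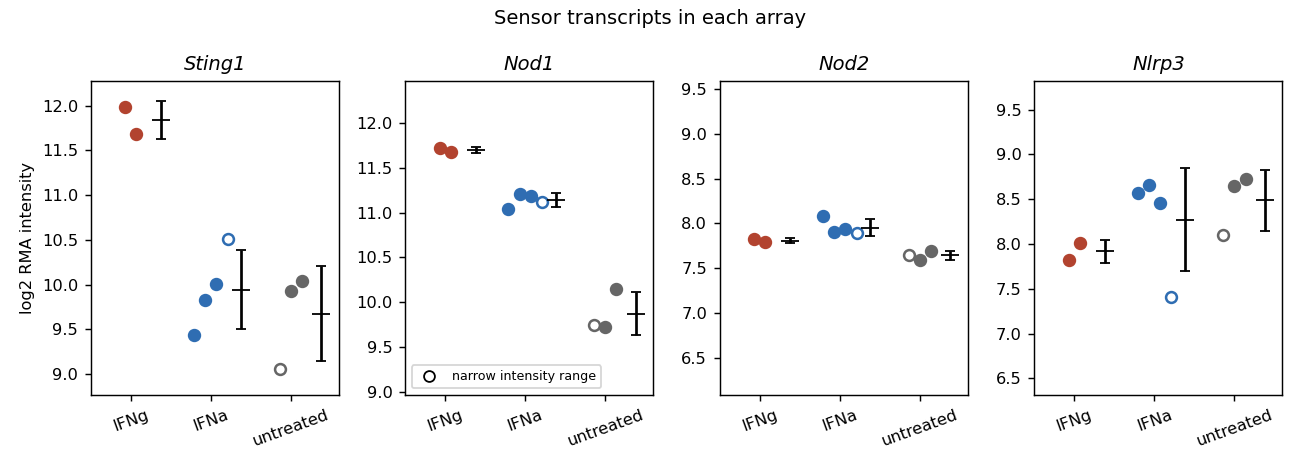
Level of the 4 sensor transcripts in each array, as log2 RMA intensity, with a panel per gene whose vertical axes span the same log2 range. Circles are arrays, open ones those of narrow intensity range, and the bar beside each group is its mean ± SD (n = 2, 4 and 3). Nod1 separates the 3 groups, Sting1 separates IFNg from the rest, Nod2 differs little, and the lowest Nlrp3 value is an open circle.

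Nod1, the receptor for peptidoglycan fragments holding diaminopimelic acid, was higher after both interferons. Its intensity was 3369 and 3268 after IFNg. It was 2111, 2372, 2334 and 2222 after IFNa, and 860.1, 843 and 1136 untreated. No array of any group overlapped another group, so the order of levels was IFNg, IFNa, untreated. The log2 levels were 11.70 ± 0.03, 11.14 ± 0.08 and 9.87 ± 0.24 in that order (SD, n = 2, 4 and 3).

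Against untreated cells, Nod1 differed by log2 1.82 ± 0.15 after IFNg (3.54-fold) and by 1.27 ± 0.13 after IFNa (2.41-fold), comparisons that share the untreated arrays. IFNg exceeded IFNa by 0.56 ± 0.15 (1.47-fold). The difference between IFNg and untreated was the 88th highest of all genes, that between IFNa and untreated the 216th, and that between IFNg and IFNa the 608th. Nod1 moved little with the choice of arrays: without those of narrow range the differences were 1.76 ± 0.15, 1.21 ± 0.13 and 0.55 ± 0.13 in the same order.

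Nod2, which senses muramyl dipeptide and shares the RIPK2 pathway with NOD1, showed small differences. Its intensity was 227 and 221 after IFNg. It was 272, 239.9, 245 and 237 after IFNa, and 201, 193 and 207 untreated. The groups did not overlap, in the order IFNa, IFNg, untreated, although the levels lay close together. IFNg exceeded untreated by log2 0.16 ± 0.12 (1.12-fold), IFNa exceeded untreated by 0.31 ± 0.10 (1.24-fold), and IFNg differed from IFNa by -0.15 ± 0.11. The SD within the groups was 0.03 to 0.09 on the log2 scale, below these standard errors, which draw on the spread of all genes.

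Nlrp3 was the single member with a lower mean after either interferon than untreated. Its intensity was 227 and 258 after IFNg. It was 379, 404, 352 and 170.4 after IFNa, and 274, 399.8 and 424 untreated. The lowest IFNa array, replicate 4, lay below both IFNg arrays, while the other IFNa arrays fell within the untreated range. Both IFNg arrays lay below all untreated arrays, the lowest of which was the untreated array of narrow range. IFNg differed from untreated by log2 -0.57 ± 0.35, IFNa from untreated by -0.22 ± 0.29 and IFNg from IFNa by -0.36 ± 0.33.

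Nlrp3 was lowest within its group in each of the 2 arrays of narrow range. Without both, the geometric mean intensity was 242 after IFNg, 378 after IFNa and 412 untreated (n = 2, 3 and 2). IFNg then lay below untreated by -0.77 ± 0.11 and below IFNa by -0.64 ± 0.10, and IFNa differed from untreated by -0.12 ± 0.10. Leaving out IFNa replicate 4 alone turned the last difference to 0.07.

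**Figure D2:**
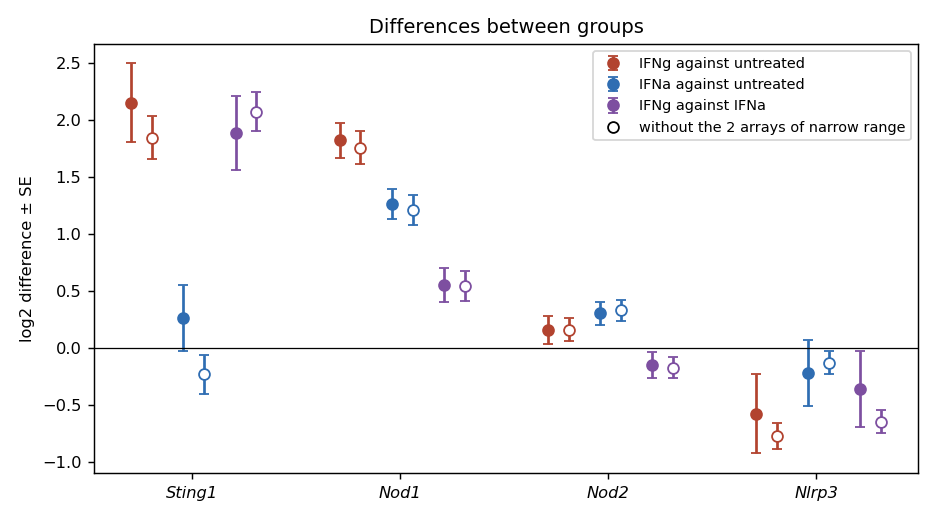
Log2 difference between group means with its standard error for each sensor, filled circles for all 9 arrays and open circles without the 2 arrays of narrow range. Sting1 and Nod1 are above 0 for IFNg against untreated in both settings, Sting1 crosses 0 for IFNa against untreated (0.27 and -0.23), and Nlrp3 is below 0 with shorter bars in the open circles.

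The members that did not overlap between groups are read here beside the same count over all genes, and, since the choice used these arrays, the counts are only a description. After IFNg, 3 of the 4 genes (Sting1, Nod1 and Nod2) lay above every untreated array, as did 12.3% of all genes, and 1 (Nlrp3) lay below, as did 15.5%. After IFNa, 2 of the 4 (Nod1 and Nod2) lay above every untreated array, against 3.68% of all genes, and 0 lay below, against 6.75%. Set against IFNa, 2 of the 4 (Sting1 and Nod1) were higher in both IFNg arrays, against 15.6% of all genes, and 1 (Nod2) was lower, against 12.8%.

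Genes that act with the sensors were read from 4 lists, leaving out the 4 members, and tested in the fit over all genes (limma, adjusted p under 0.05). The lists were chosen with earlier results of these data known. Their counts beside the share of all genes are therefore only a description. Of 78 such genes measured, 6 rose after IFNg against untreated and 0 fell, where 1.24% and 0.111% of all genes were called higher and lower. After IFNa 9 rose and 0 fell, where 1.79% and 0.856% of all genes did. Between IFNg and IFNa 2 were higher after IFNg and 0 lower, where 0.537% and 0.44% of all genes were. The medians of all genes were log2 -0.06, -0.02 and -0.03 in these comparisons. Without both arrays of narrow range 11, 11 and 4 of the 78 were higher and 0, 1 and 3 lower in the same comparisons, where 1.81%, 2.37% and 1.48% of all genes were higher and 0.734%, 3.23% and 1.27% lower. Without either IFNg array, and in a fit of only the 2 groups compared, 1 gene, Ciita, was called higher after IFNg than untreated.

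Around STING, Trex1 and Samhd1 rose after both interferons and Cgas after IFNa. Of 17 genes, 2 rose after IFNg (list median 0.13), 3 after IFNa (0.0030) and 0 differed between IFNg and IFNa (0.15). Cgas, whose enzyme makes the cGAMP that STING binds, differed from untreated by log2 0.69 ± 0.22 after IFNg (adjusted p = 0.33) and rose after IFNa by 1.44 ± 0.19 (2.71-fold, adjusted p = 0.00199). Its intensity was 171 and 191 in the IFNg arrays. It was 219 to 372 in the IFNa arrays and 100.4 to 125 in the untreated arrays, and the groups did not overlap. Cgas was therefore highest after IFNa where Sting1 was highest after IFNg, but the difference of Cgas between IFNg and IFNa, -0.75 ± 0.21, did not pass (adjusted p = 0.229). Without the arrays of narrow range it was -0.90 ± 0.14 and passed (adjusted p = 0.0153).

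Trex1, an exonuclease that degrades cytosolic DNA and so limits cGAS, rose by 1.45 ± 0.23 after IFNg (adjusted p = 0.0152) and by 1.32 ± 0.20 after IFNa (adjusted p = 0.00517). Samhd1, which depletes the nucleotides needed for DNA synthesis, rose by 1.34 ± 0.19 after IFNg (adjusted p = 0.00824) and by 1.07 ± 0.16 after IFNa (adjusted p = 0.00548). Tbk1 differed from untreated by 0.62 ± 0.26 after IFNg and 0.41 ± 0.22 after IFNa, and Irf3 by -0.09 ± 0.13 and -0.34 ± 0.11. Neither passed (adjusted p = 0.181 to 0.83). The calls of Trex1 and Samhd1 after IFNg ended without either IFNg array (adjusted p = 0.0865 to 0.199).

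In the pathway of NOD1 and NOD2, 1 of 24 genes rose after IFNg (list median 0.17), 2 after IFNa (-0.0036) and 0 differed between IFNg and IFNa (0.16). Rnf31, the catalytic subunit of the ligase that attaches linear ubiquitin chains in this pathway, rose by 1.10 ± 0.16 after IFNg (adjusted p = 0.00794) and 0.63 ± 0.13 after IFNa (adjusted p = 0.0348). The call after IFNg ended without either IFNg array, and that after IFNa ended in 7 of the 9 fits that left out 1 array (adjusted p up to 0.13). The IFNa call also ended under median centring (0.051), an intensity trend (0.0751) or a fit of only the groups compared (0.0816). IFNg differed from IFNa by 0.47 ± 0.15 (adjusted p = 0.344), and by 0.52 ± 0.09 without the arrays of narrow range, where it passed as higher (adjusted p = 0.0238). Slc15a3, an endolysosomal transporter that can carry muramyl dipeptide to the cytosol, differed by 0.41 ± 0.21 after IFNg (adjusted p = 0.661) and rose after IFNa by 1.24 ± 0.17 (2.36-fold, adjusted p = 0.00343). The value between IFNg and IFNa was -0.82 ± 0.20 (adjusted p = 0.122), and -0.68 ± 0.11 (adjusted p = 0.0189) without the arrays of narrow range. Xiap, a ubiquitin ligase that binds RIPK2, differed by 0.55 ± 0.32 after IFNg and 0.59 ± 0.27 after IFNa, and did not pass. Ripk2 had no probe set of its own in the analysis.

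Among genes of the NLRP3 inflammasome, Casp1 and Casp4 rose after both interferons, and Il18 and Myd88 after IFNa. Of 17 genes 2 rose after IFNg (list median 0.32), 4 after IFNa (0.17) and 0 differed between IFNg and IFNa (0.16). Casp1, the protease of the inflammasome, had 1306 and 1035 in the IFNg arrays, 1026 to 1332 in the IFNa arrays and 339 to 624 untreated. It rose by 1.34 ± 0.24 after IFNg (2.54-fold, adjusted p = 0.0247) and by 1.31 ± 0.20 after IFNa (2.49-fold, adjusted p = 0.00602). Casp4, the mouse gene for caspase-11, which detects cytosolic lipopolysaccharide, rose by 1.87 ± 0.32 after IFNg (adjusted p = 0.02) and by 1.62 ± 0.27 after IFNa (adjusted p = 0.0102). Both treated groups lay above all untreated arrays for these caspases. Without either IFNg array neither was called after IFNg (adjusted p = 0.126 to 0.353), and Casp1 also lost that call without IFNa replicate 1 or 2 or untreated replicate 2 (adjusted p up to 0.111).

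Il18, a cytokine that caspase-1 matures, had 596 and 564 in the IFNg arrays, 796 to 1302 in the IFNa arrays and 137 to 329.8 untreated. It differed from untreated by 1.34 ± 0.34 after IFNg (adjusted p = 0.134) and rose after IFNa by 2.24 ± 0.28 (4.72-fold, adjusted p = 0.00172). Without the arrays of narrow range the value after IFNg was 0.97 ± 0.14 and passed (adjusted p = 0.011), and IFNg lay below IFNa by -1.04 ± 0.13 (adjusted p = 0.00457). Myd88, the adaptor of most Toll-like receptors and of the receptors for these cytokines, differed by 1.74 ± 0.37 after IFNg (adjusted p = 0.0664) and rose after IFNa by 1.43 ± 0.31 (adjusted p = 0.0459). The IFNa call of Myd88 ended without either IFNg array, any IFNa array or untreated replicate 2 (adjusted p up to 0.111). The same call of Myd88 also ended under median centring (0.0719), with a replicate block (0.0633) and in a fit of only the groups compared (0.0888). After IFNg it passed in 6 of 17 alternatives, and without the arrays of narrow range it passed after both, at 1.29 ± 0.13 after IFNg (adjusted p = 0.00182) and 0.85 ± 0.11 after IFNa (adjusted p = 0.00515). Il1b, the other cytokine matured by caspase-1, differed by -0.40 ± 0.22 after IFNg and -0.17 ± 0.18 after IFNa. Pycard (ASC, 0.33 ± 0.15 and 0.17 ± 0.13), the pore-forming Gsdmd (0.31 ± 0.15 and 0.19 ± 0.12) and Nek7, a kinase that binds NLRP3 (0.28 ± 0.33 and 0.51 ± 0.28), also did not pass after IFNg or IFNa. Without the arrays of narrow range Nek7 stood at -0.02 ± 0.10 after IFNg and at 0.42 ± 0.09 after IFNa, the second of which passed (adjusted p = 0.0394).

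Of 22 other NOD-like receptor genes 1 rose after IFNg (list median -0.09), 0 after IFNa (-0.01) and 2 were higher after IFNg than after IFNa (-0.07). Ciita, the activator of MHC class II transcription, rose by 1.77 ± 0.16 after IFNg (3.42-fold, adjusted p = 4.75e-04) and exceeded IFNa by 1.64 ± 0.15 (adjusted p = 7.81e-04). Nlrp1b, an inflammasome sensor, had 231 and 204 in the IFNg arrays, 86.8 to 135 in the IFNa arrays and 115 to 132 untreated. It differed from untreated by 0.78 ± 0.19 after IFNg (adjusted p = 0.106) and by -0.20 ± 0.16 after IFNa (adjusted p = 0.789). It exceeded IFNa by 0.97 ± 0.18 (adjusted p = 0.0326), a call that ended without either IFNg array. That call also ended without IFNa replicate 2 or 3 or untreated replicate 2 or 3 (adjusted p up to 0.107). So it did under quantile normalization (0.0836) and in a fit of only the groups compared (0.0925). Without the arrays of narrow range Nlrp1b after IFNg exceeded IFNa by 0.86 ± 0.13 (adjusted p = 0.0113) and untreated by 0.81 ± 0.14 (adjusted p = 0.0248). Nlrc5, the counterpart of Ciita for MHC class I, differed by 1.00 ± 0.28 after IFNg and 0.83 ± 0.23 after IFNa (adjusted p = 0.199 and 0.117). Without the arrays of narrow range these were 1.25 ± 0.13 and 0.94 ± 0.12 and passed (adjusted p = 0.00251 and 0.0042). Nlrc5 has 19 probe sets of its own, and the brightest, used here, had a higher untreated level (1378) than any other (129 to 689). The mean of all 19 gave 2.03 ± 0.16 after IFNg (adjusted p = 1.99e-04) and 1.60 ± 0.13 after IFNa (adjusted p = 1.10e-04), so both calls depend on the choice of probe set.

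**Figure D3:**
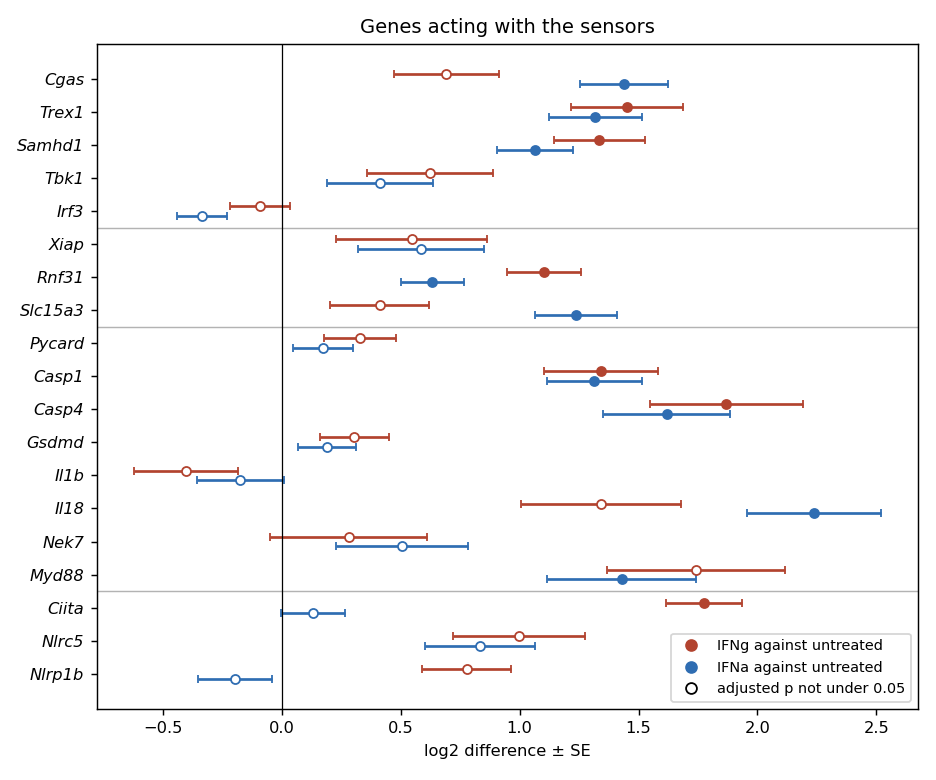
Log2 difference from untreated with its standard error for the named genes acting with STING (top block), NOD1 and NOD2, NLRP3, and other NOD-like receptors (bottom block), after IFNg and IFNa. Filled circles passed at an adjusted p under 0.05. Casp1, Casp4, Trex1, Samhd1 and Rnf31 are filled for both interferons, Ciita for IFNg, and Cgas, Slc15a3, Il18 and Myd88 for IFNa.

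Other genes with the profile of Sting1 or Nod1 were sought by the Pearson correlation of log2 intensity over the 9 arrays. The search covered 574 genes whose group means spanned at least log2 1. Predicted genes and clones, with names of the Gm, LOC, BC, AK, AI, AW or Rik kind, were left out. The arrays share their treatment groups and intensity range, so the values describe likeness only. Closest to Sting1 were Tnfrsf1a, the gene of TNF receptor 1 (r = 0.98), the receptor gene Gpr146 (0.97), Dram1, which encodes a lysosomal membrane protein of autophagy (0.96), the cytokine receptor subunit gene Csf2rb2 (0.96) and Rara, a receptor for retinoic acid (0.96). Tnfrsf1a had a mean intensity of 4610.0 after IFNg, 2527 after IFNa and 2059 untreated, again with IFNa close to untreated. Csf2rb2 had 2260.4, 775 and 759 in that order. Without the arrays of narrow range r was 0.96 to 0.98 for these 5 genes.

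Closest to Nod1 were Prr5l, whose product binds the kinase complex mTORC2 (r = 0.99), Il18bp, which encodes the soluble inhibitor of IL-18 (0.99), Gdap10 (0.99), the transcription factor gene Irf1 (0.98) and the GTPase gene Gbp3 (0.98). Prr5l had a mean intensity of 953 after IFNg, 442 after IFNa and 102 untreated. Il18bp had 1784, 1272 and 580.0, and Irf1 had 6238, 2890 and 553 in that order. All 5 stood in the order IFNg, IFNa, untreated, as Nod1 did. Without the arrays of narrow range r was 0.98 to 0.99.

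**Figure D4:**
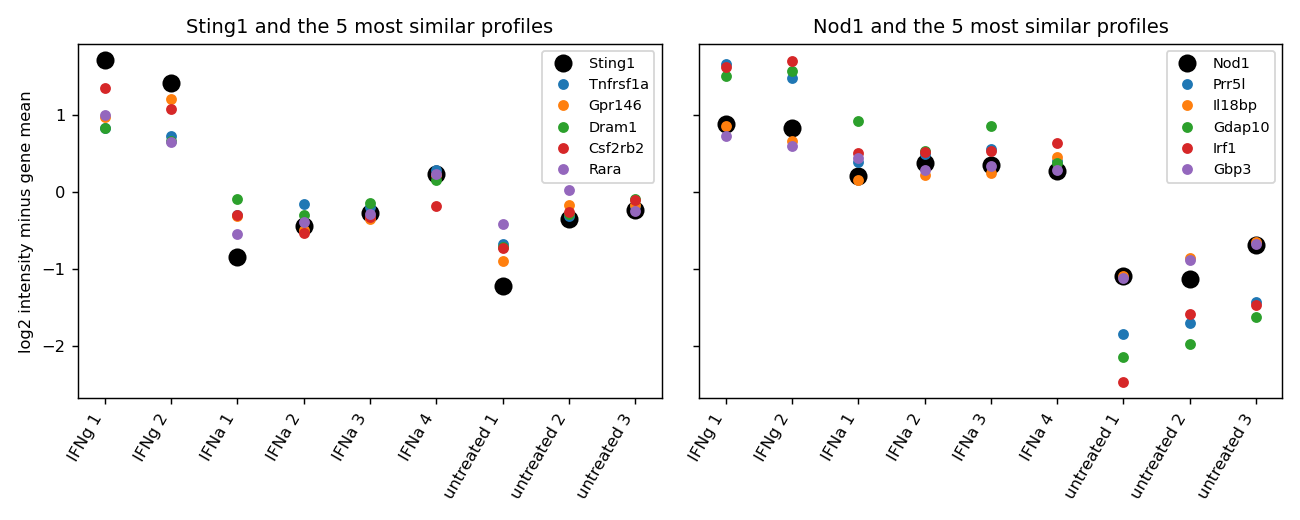
Log2 intensity of Sting1 (left) and Nod1 (right) in each array, in black, and of the 5 genes most correlated with each, all with the gene's mean over 9 arrays subtracted. The Sting1 group is highest in the 2 IFNg arrays, and IFNa replicate 4, of narrow intensity range, lies above the other IFNa arrays. The Nod1 group is high in IFNg, intermediate in IFNa and low in untreated arrays.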

How the data were processed

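Messenger RNA of 9 samples of sorted peritoneal macrophages was measured on single-colour Affymetrix arrays. The deposited values are intensity on a linear scale, 1 per probe set and array, made by the authors with RMA, a robust average over the probes of a set, in Affymetrix Power Tools, per the submitters' processing notes. Versions and the arrays normalized together are not given in the sources used here.

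Here log2 of the intensity was taken. Of 24922 probe sets, 21425 carried 1 gene symbol, 1399 several and 2098 none. The brightest probe set with 1 symbol represented each of 19752 genes. No filter was applied. Samples were grouped by title. limma 3.58.1 (R 4.3.3) fitted 3 group means to the 9 arrays, and the spread was pooled over groups, the 2 IFNg arrays included. Two-sided p-values were adjusted after Benjamini-Hochberg over all genes, with a threshold of 0.05. Tested on simulated data, 2-fold changes were recovered in 65% (IFNg against untreated), 81% (IFNa against untreated) and 68% (IFNg against IFNa) of cases. The simulated noise was normal, independent between arrays and equally wide in all, so deviations shared by arrays were not represented.

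Of 90 list entries, 84 matched a gene. The 4 members, lists and tests were chosen with earlier results of these data known. Besides the members, 16 genes chosen by role, up to 6 called genes with the smallest p per list and comparison, and 5 genes most like a member with a span of log2 1 were named. Alternatives were quantile normalization, median centring, removal of the dimmest 30% of genes, an intensity trend, a fit of only the groups compared, the mean of all probe sets, a replicate block, leaving out both arrays of narrow range and leaving out each array. Plots were drawn with Python 3.11.15. The number of arrays limits the precision.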

Additional observations from a re-analysis of the deposited data

Results flagged for a closer look

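Nlrp3 in IFNa replicate 4 stood far below the other IFNa arrays. On the log2 scale its gap to the nearest of them was 0.842 of the range of the group, above the 95% critical value of Dixon's test for 4 values. Its intensity there was 170.4, against 352 to 404 in the other IFNa arrays, and the array is 1 of the 2 with a narrow intensity range. Chance would flag about 1 in 20 such groups, and 4 genes were examined.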

How the results depend on the processing

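The differences of Sting1 and Nod1 between IFNg and untreated (1.85 to 2.34 and 1.68 to 1.96) and between IFNg and IFNa (1.72 to 2.23 and 0.52 to 0.63), and of Nod1 between IFNa and untreated (1.16 to 1.41), kept their direction under all 17 alternatives. Many of these cannot alter the difference of a member. They are removal of dim genes, an intensity trend, a fit of only the groups compared, the mean of its single probe set, and leaving out arrays of the third group. Those say nothing about direction. For Sting1, IFNa against untreated ran from -0.23 without both narrow arrays to 0.45. Under quantile normalization Nod2 differed by 0.39 between IFNa and untreated and by -0.24 between IFNg and IFNa. Of all genes, 245 were called higher and 22 lower after IFNg, 354 and 169 after IFNa, and 106 and 87 between IFNg and IFNa. Quantile normalization gave 80, 421 and 160 lower in these comparisons. Without both narrow arrays 145, 638 and 250 were lower and, between IFNg and IFNa, 292 higher. Fitting only the groups compared gave 112 higher and 7 lower for IFNg and 74 lower for IFNa. For IFNa, median centring gave 105 lower and an intensity trend 100. The cause of these shifts was not tested. Leaving out each array gave 79 to 363 higher and 1 to 44 lower for IFNg, 27 to 255 lower for IFNa, and 21 to 146 higher and 21 to 130 lower between IFNg and IFNa. With the replicate number as a block, 589 genes were higher and 110 lower after IFNg, and 587 higher after IFNa. Same-numbered arrays of different groups correlated in their deviations at r = -0.21 to 0.60, and different-numbered ones at -0.61 to 0.61. The highest value, 0.61, was that of the 2 arrays of narrow range, IFNa replicate 4 and untreated replicate 1. This check therefore cannot separate pairing from intensity range. The 2 IFNg arrays deviate from their own mean by equal and opposite amounts, so it cannot decide on pairing there either. The numbers were not taken to pair arrays. The numbers are those of the titles, and the descriptions number some arrays differently, so what the block joins is in doubt. For the 19 named genes that act with the sensors, 966 alternative values were made, of which 46 lost a call and 24 gained one. Only calls of the main fit (6, 9 and 2 in the 3 comparisons) can be lost, so 966 is not the base for losses. Of 17 alternatives, the IFNa calls of Myd88 and Rnf31 were lost in 10 each. The Nlrp1b call between IFNg and IFNa was lost in 8. After IFNg, Casp1 lost its call in 6, and Casp4, Rnf31, Samhd1 and Trex1 in 3 each. The sign turned in 11 values, none of them called in either fit.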
